A study of Mus musculus with 6 samples.

Results

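The genes described here are Gapdh, Ldhal6b, G6pd2 and Gk, 4 enzyme genes of glucose and glycerol metabolism. They were measured in mouse cortex of sham animals and of animals with tMCAO, in which the middle cerebral artery is blocked for a time and then reopened, a model of ischemic stroke with reperfusion. They were chosen by the RefSeq accession that the array files give to their probes: NM_008084.2 for Gapdh, NM_175349.2 for Ldhal6b, NM_019468.2 for G6pd2 and NM_008194.3 for Gk. The rule itself used no expression value, but the genes were chosen with earlier results of these data known. The 4 probes are among 15 probes that carry such an accession and 60915 probes in all. Each of the 4 was printed 20 times per array, so that 80 of the 61200 spots used on an array belong to them.

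All mice were male and 8 weeks old, and the labels used here name no strain. The tMCAO mice were killed 12 h after reperfusion, and RNA came from the ischemic cortex of each mouse. The labels give sham replicates no time of their own and do not say which side of the cortex was taken. There were 3 sham and 3 tMCAO arrays, each hybridised with Cy3-labelled cRNA from 1 sample, and the series' design text speaks of independent experiments. Ribosomal RNA had been removed and the labelling used random primers along the whole transcript.

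Glycolysis breaks glucose down to pyruvate, and glyceraldehyde-3-phosphate dehydrogenase, encoded by Gapdh, carries out its oxidative step. Lactate dehydrogenases convert pyruvate to lactate, which lets glycolysis go on when oxygen is short, as in ischemic brain. Glucose-6-phosphate dehydrogenase opens the pentose phosphate pathway, the main source of the NADPH that cells use against oxidants. Glycerol kinase, encoded by Gk, phosphorylates glycerol, which is set free when lipids are broken down, so that it can enter lipid synthesis or glycolysis. Ldhal6b is a lactate dehydrogenase gene of the testis type, and G6pd2 is an intronless copy of the X-linked gene G6pdx that is known for expression in the testis.

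A level below is the log2 of a spot's background-subtracted signal relative to the 75th percentile of all non-control spots on its array, averaged over the spots of a probe. The scanner software marks a spot as nonuniform where its pixels vary too much, and as a population outlier where it departs from the other spots of its probe. Marked spots were left out, except where values with all spots are given. Differences are tMCAO minus sham and were tested with limma over all 44292 probes with enough signal. All 4 genes were among these, and all 120 spots of each gene over the 6 arrays carried the scanner's mark for well above background. That mark was also carried by 40 to 45 of the 300 spots of negative probes on each array.

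None of the 4 genes passed this test. Gk entered it with 2 tMCAO values, because every Gk spot on tMCAO replicate 2 was marked. Of the 4, 0 had a limma adjusted p under 0.05, against 1.42% of all tested probes. At an unadjusted p under 0.05 the count was also 0 of 4, against 17.9% of all probes. By direction, 0 of the 4 rose, against 1.23% of all probes, and 0 fell, against 0.187%. The sham and tMCAO values overlapped for all 4 genes, so that 0 of 4 were without overlap, against 24.7% of all probes. The difference was below 0 for 3 of the 4, against 57.8% of all probes. The median difference of the 4 genes was -0.05 log2 units, the same to 2 decimals as the median of -0.05 over all tested probes. With marked spots kept, 0 of the 4 passed, against 1.33% of all probes. With 4 genes, a count of 0 cannot be told apart from any of these shares, and it does not show that the genes were unchanged. These arrays measured bulk tissue, in which fewer cells of a type and less RNA per cell cannot be told apart.

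Gapdh, the glycolytic gene often used as a reference, lay at 7.94, 7.89 and 7.81 on sham replicates 1, 2 and 3. On tMCAO replicates 1, 2 and 3 it lay at 7.63, 7.90 and 7.85. tMCAO replicate 1 was below every other array, and the other tMCAO arrays lay within the sham range. The sham arrays averaged 7.88 ± 0.07 (SD, n = 3) and the tMCAO arrays 7.79 ± 0.14 (SD, n = 3). This is a change of -0.09 ± 0.12 log2 units (SE; limma, adjusted p = 0.7), or 0.94-fold, with a 95% interval of 0.779-fold to 1.14-fold. Without tMCAO replicate 1 the difference of Gapdh was -0.0079 log2 units (limma, adjusted p = 0.982).

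The spot repeats of Gapdh were tight. The SD over its 20 spots was between 0.0149 and 0.0246 log2 units on the 6 arrays, and 9 of 120 spots were marked as population outliers. The standard error of the array mean was at most 0.00462 log2 units. The mean signal ran from 124113 intensity units on tMCAO replicate 3 to 219024 on tMCAO replicate 2, with 0 saturated spots.

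Among the 3 genes without nonuniform marks, Gapdh had the difference that moved most with the scaling of the arrays. It was -0.02 log2 units when arrays were scaled by the median, -0.06 with normexp background correction, -0.24 with quantile normalization and -0.27 in the authors' deposited table (limma, adjusted p = 0.947, 0.768, 0.271 and 0.246). In the authors' deposited table Gapdh ran from 17.34 to 17.52 on the sham arrays and from 17.05 to 17.24 on the tMCAO arrays, so that the groups did not overlap there. With quantile normalization the sham values were 17.49, 17.33 and 17.33 and the tMCAO values 17.07, 17.10 and 17.24, again without overlap. With the scaling used for the levels above, 24.7% of all tested probes had groups without overlap. That share was not computed for quantile normalization or the authors' deposited table, so the lack of overlap there has no background share. Gapdh was below sham in each of the scalings compared here and passed the threshold in none.

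**Figure D1:**
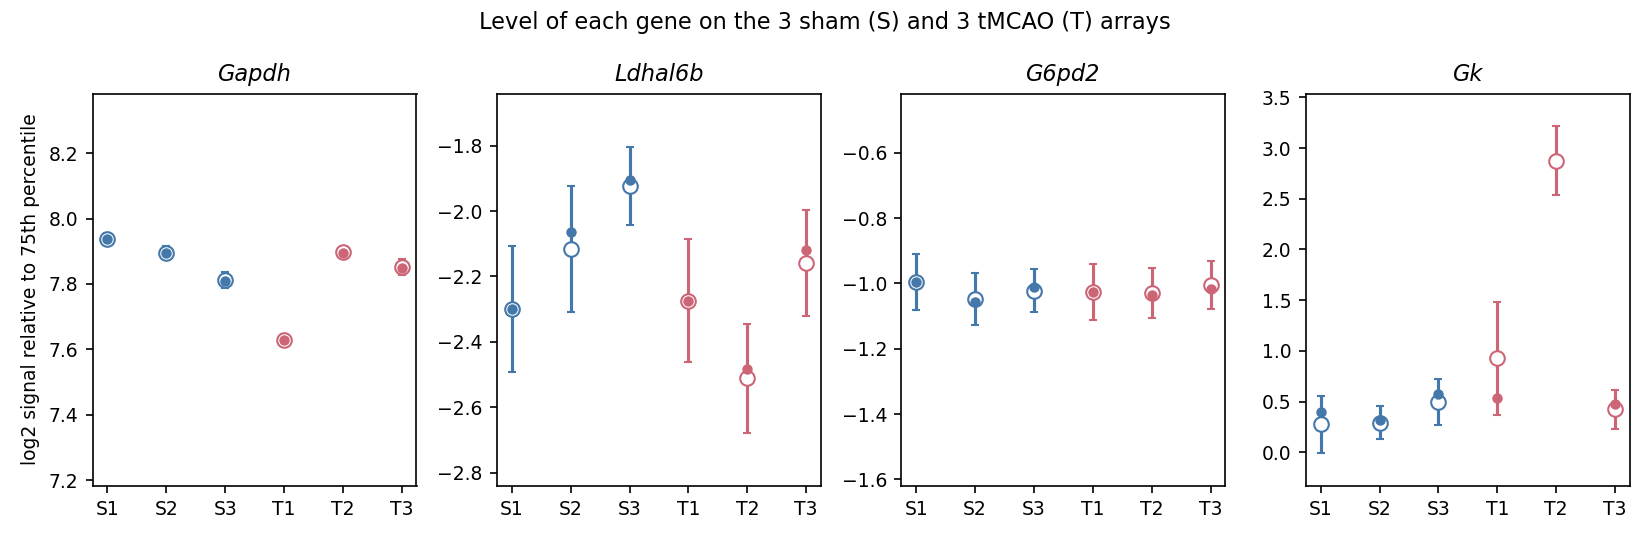
Level of the 4 genes on sham (S, blue) and tMCAO (T, red) arrays, in log2 signal relative to the 75th percentile of the array. Open points are means over all 20 spots with the SD over spots as bars, filled points are means without marked spots, and the axes of the first 3 panels span the same number of log2 units. Gapdh is lowest on T1, G6pd2 is level over all arrays, and Gk stands at 2.88 on T2, where every spot was marked.

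Probes from the array's control set gave further measurements of Gapdh and of Pgk1, the gene of the next glycolytic enzyme, phosphoglycerate kinase. There were 12 such probes, for the 3′ and 5′ part of each transcript in its mouse, rat and human form, as their names give them, with 10 spots each. The probe Mouse-GAPDH_3 lay at 7.22, 7.24 and 7.15 in sham and at 7.02, 7.29 and 7.05 in tMCAO, a difference of -0.08 log2 units (exact permutation p = 0.4, two-sided). Mouse-GAPDH_5 lay at 6.23, 6.34 and 6.34 in sham and at 6.30, 6.50 and 6.04 in tMCAO, a difference of -0.02 (exact permutation p = 0.8). Both mouse Gapdh control probes put tMCAO replicate 2 above every sham array, whereas the lowest array was tMCAO replicate 1 for the first and tMCAO replicate 3 for the second.

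Mouse-PGK1_3 lay at 7.00, 7.09 and 6.97 in sham and at 7.11, 7.42 and 6.84 in tMCAO, a difference of 0.11 log2 units (exact permutation p = 0.7). Its 3 tMCAO arrays thus spanned more than its sham arrays, above and below them. Mouse-PGK1_5 differed by -0.02 (exact permutation p = 0.8).

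The groups did not overlap for 2 of the 12 control probes, both named for Gapdh of another species, where 24.7% of all tested probes had no overlap. This count of control probes is thus not above the background. Rat-GAPDH_3 lay at 1.83, 1.80 and 1.80 in sham and at 1.49, 1.52 and 1.54 in tMCAO. Sham averaged 1.81 ± 0.02 (SD, n = 3), and tMCAO averaged 1.52 ± 0.03 (SD, n = 3), a difference of -0.29. Human-GAPDH_5 averaged 1.69 ± 0.10 over sham arrays (SD, n = 3) and 1.46 ± 0.10 over tMCAO arrays (SD, n = 3), and differed by -0.23. For both, the exact permutation test gave p = 0.1, the smallest that 3 arrays against 3 allow, and an adjusted p of 0.6 over the 12 probes. Which mouse transcripts bind the rat and human probes was not tested.

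**Figure D2:**
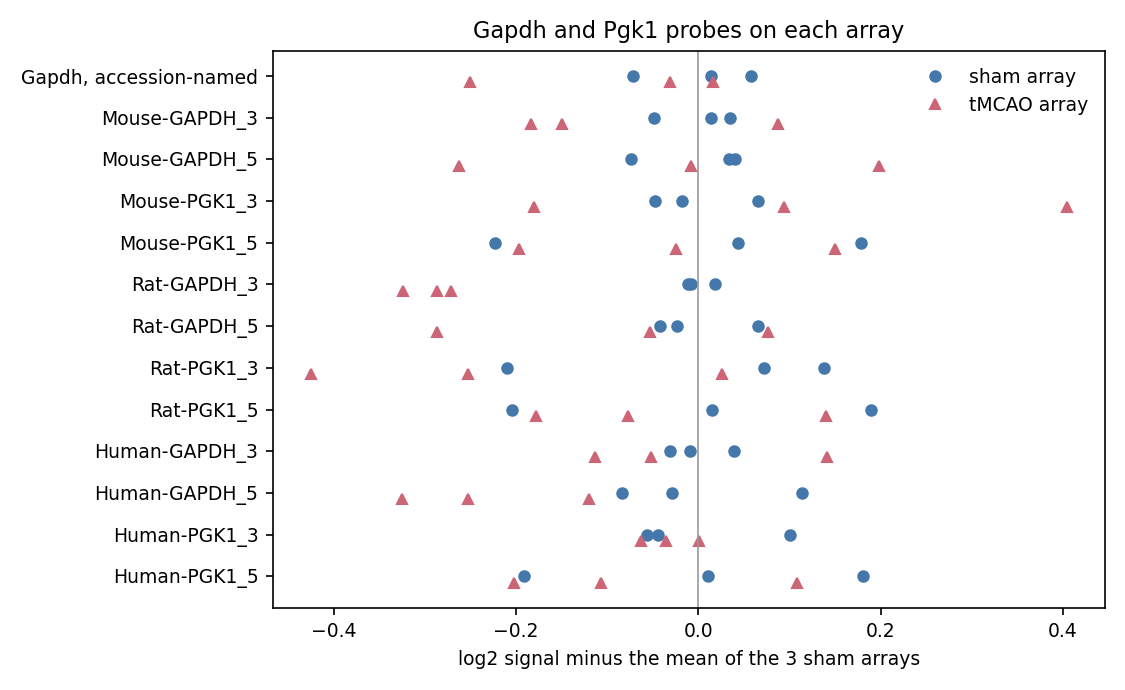
Values of the accession-named Gapdh probe and of the 12 Gapdh and Pgk1 control probes on each array, as log2 signal minus the mean of the 3 sham arrays. Blue circles are sham arrays and red triangles tMCAO arrays. The groups lie apart for Rat-GAPDH_3 and Human-GAPDH_5 and overlap for the other 11 probes.

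Ldhal6b, the lactate dehydrogenase gene of the testis type, read -2.30, -2.06 and -1.90 in sham replicates 1 to 3, and -2.27, -2.48 and -2.12 in tMCAO replicates 1 to 3. Each tMCAO array was below the sham mean, but only tMCAO replicate 2 was below every sham array, and sham replicate 3 was the highest of the 6. Sham averaged -2.09 ± 0.20 (SD, n = 3), and tMCAO averaged -2.29 ± 0.18 (SD, n = 3). The 2 groups differed by -0.20 ± 0.15 log2 units (SE; limma, adjusted p = 0.478), or 0.869-fold, with a 95% interval of 0.686-fold to 1.1-fold.

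Ldhal6b gave a low signal, with array means between 113.7 and 194.8 intensity units. The 300 spots of the array's 15 negative probes had a median of 5.30 to 7.45 intensity units, and the lowest signal that counted as well above background was between 26.6 and 37.3. The highest negative spot of an array lay between 85.3 and 418.8 intensity units, and on sham replicates 2 and 3 it was above the mean of Ldhal6b. The mark for well above background therefore does not set Ldhal6b apart from every negative probe. The spots of Ldhal6b scattered more than those of Gapdh and G6pd2, with an SD of 0.12 to 0.19 log2 units over the 20 spots of an array, and 12 of 120 were marked as population outliers. The difference of Ldhal6b was below 0 under each of the 19 alternatives, between -0.31 and -0.11 log2 units, and passed under none (limma, adjusted p from 0.256 to 0.792). It was -0.11 without sham replicate 3 or without tMCAO replicate 2, and -0.31 without sham replicate 1.

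G6pd2, the copy of the gene for the first enzyme of the pentose phosphate pathway, read -0.996, -1.06 and -1.01 in sham replicates 1 to 3, and -1.03, -1.04 and -1.02 in tMCAO replicates 1 to 3. The 6 values thus spanned 0.0609 log2 units, and the tMCAO arrays lay inside the sham range. Sham averaged -1.02 ± 0.03 (SD, n = 3), and tMCAO averaged -1.03 ± 0.01 (SD, n = 3). The change of G6pd2 was -0.0047 ± 0.10 log2 units (SE; limma, adjusted p = 0.984), with a 95% interval of 0.85-fold to 1.17-fold. The limma interval draws on the spread of all probes and is therefore wider than the spread of G6pd2 alone.

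Few probes varied as little over the 6 arrays as G6pd2. Its SD was 0.0212 log2 units, and 4 of the 44103 tested probes with a value on every array had a smaller one. The median SD of these probes was 0.20. The rank is a description and depends on the scaling: 16 of 44214 probes had a smaller SD in the authors' deposited table, 23 of 44103 with quantile normalization, 56 with normexp and 1025 (2.32%) with median scaling, where its SD was 0.0745. The raw signal was not constant. It averaged 267.9 intensity units on tMCAO replicate 3 and 459.5 on tMCAO replicate 1, and so moved with the 75th percentile, which was 537.2 and 934.6 on the same arrays.

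All 15 accession-named probes are means over up to 20 spots, while a design-code probe has 1 spot per array. The standard error over the kept spots of G6pd2 was between 0.0106 and 0.0193 log2 units, close to its SD between arrays. Among the other accession-named probes with a value on every array, the next smallest SD over the 6 arrays was that of Hprt, at 0.0819. Gapdh had an SD of 0.11, and 12.2% of probes had a smaller one. For Ldhal6b the SD was 0.20, and 52.3% of probes had a smaller one.

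**Figure D3:**
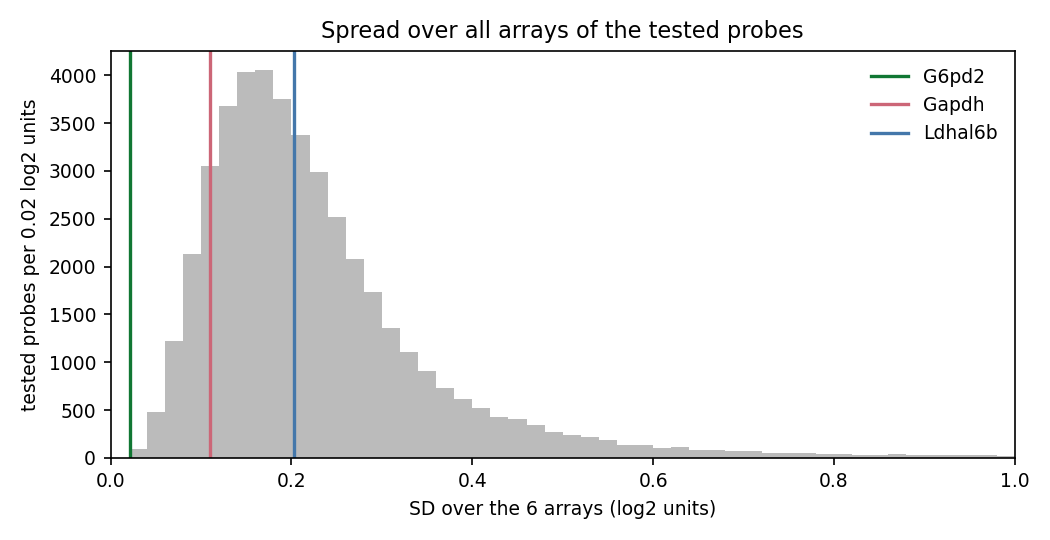
Distribution of the SD over the 6 arrays for 44103 tested probes with a value on every array, in bins of 0.02 log2 units, with the SD of G6pd2 (0.0212), Gapdh (0.11) and Ldhal6b (0.20) as vertical lines. G6pd2 lies at the lower edge, Gapdh in the lower part and Ldhal6b near the middle. The 309 probes with an SD over 1 are not drawn.

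Gk, the glycerol kinase gene, had different values with and without the marked spots. With all spots it read 0.28, 0.29 and 0.50 in sham replicates 1 to 3, and 0.93, 2.88 and 0.42 in tMCAO replicates 1 to 3. tMCAO replicate 2 was thus 5.74-fold above the sham mean and tMCAO replicate 1 was 1.49-fold above it, while tMCAO replicate 3 lay inside the sham range at 1.05-fold. With all spots, sham averaged 0.35 ± 0.12 (SD, n = 3), and tMCAO averaged 1.41 ± 1.29 (SD, n = 3). Gk thus differed by 1.05 ± 0.55 log2 units (SE; limma, adjusted p = 0.347), or 2.08-fold, with a 95% interval of 0.862-fold to 5.0-fold. This did not pass the threshold, and the spread within the tMCAO group was larger than the difference.

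Without the marked spots tMCAO replicate 2 had no value. Gk then read 0.40, 0.32 and 0.58 in sham replicates 1 to 3, and 0.54 and 0.48 in tMCAO replicates 1 and 3, which were inside the sham range. The level was 0.43 ± 0.13 in sham (SD, n = 3) and 0.51 ± 0.04 in tMCAO (SD, n = 2), and the difference was 0.08 ± 0.14 log2 units (SE; limma, adjusted p = 0.786). The value of tMCAO replicate 1 rested on 9 of 20 spots. The spots left out averaged -0.22, -0.21 and 0.03 on sham replicates 1 to 3 and 0.21 on tMCAO replicate 3, but 1.25 on tMCAO replicate 1. Leaving them out thus raised the sham values and that of tMCAO replicate 3, and lowered that of tMCAO replicate 1.

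The marks on Gk were of different kinds on different arrays. All 20 spots on tMCAO replicate 2 and 11 of 20 on tMCAO replicate 1 carried the nonuniform mark, against 0 on the other 4 arrays. The population outlier mark was carried by 4, 1 and 3 spots on sham replicates 1, 2 and 3 and by 4 on tMCAO replicate 3. The other 3 genes had 0 spots with the nonuniform mark.

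On tMCAO replicate 2 the 20 spots ran from 2.10 to 3.36, so that each was above the highest sham spot, at 0.70. On tMCAO replicate 1 they ran from 0.12 to 1.90 and 13 of 20 were above that sham spot, 10 of them marked and 3 unmarked. The 11 marked spots of that array averaged 1.25 and the 9 unmarked ones 0.54. The unmarked spots themselves ranged from 0.12 to 1.17, a spread of 0.39 (SD over spots). On each sham array it was 0.11 after population outliers were left out, a mark that no Gk spot of tMCAO replicate 1 carried. With all spots the SD was 0.56 on tMCAO replicate 1 and 0.28, 0.16 and 0.23 on sham replicates 1, 2 and 3. On tMCAO replicate 1 the brighter Gk spots thus mostly carried the mark.

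The array layout places the 20 spots of Gk between rows 28 and 368 of 384 and between columns 13 and 145 of 164. Across the 20 spots, values of sham replicates 1 and 3 correlated at 0.95, sham replicates 1 and 2 at 0.74, and sham replicate 1 and tMCAO replicate 3 at 0.88. Values on tMCAO replicates 1 and 2 correlated with those of each other array at 0.16 to 0.37. These are correlations over spots of 1 probe at fixed positions, given as a description.

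**Figure D4:**
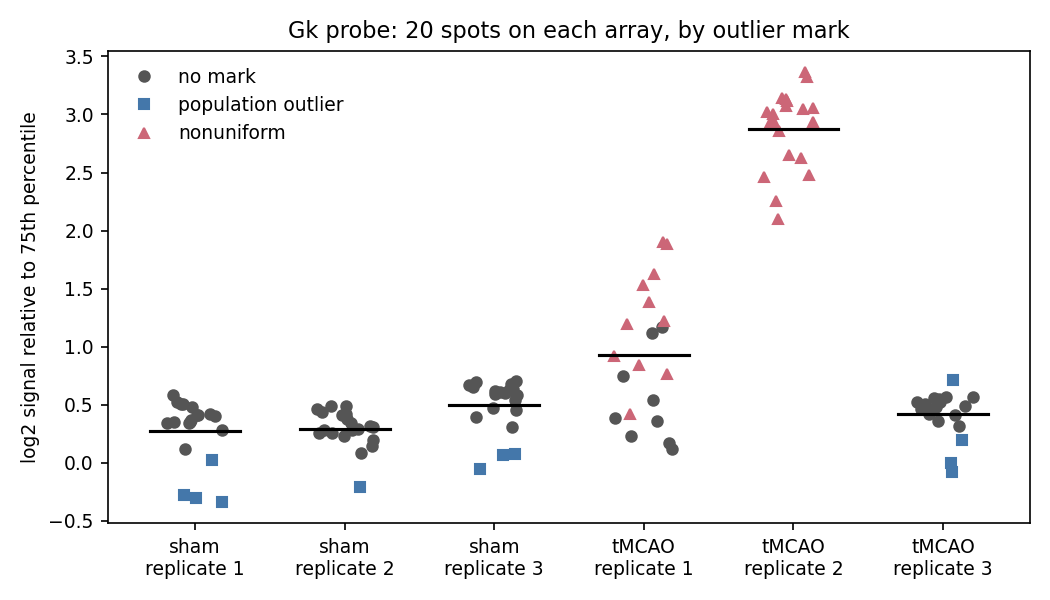
The 20 spots of the Gk probe on each array, in log2 signal relative to the 75th percentile, with the mean of all spots as a line and the scanner's outlier marks by symbol. All spots of tMCAO replicate 2, between 2.10 and 3.36, and 11 of 20 on tMCAO replicate 1 carry the nonuniform mark, while marked spots on sham arrays are population outliers below the rest.

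The pixels within these spots were uneven. The log2 ratio of the mean to the median pixel signal had a median of 0.22 over the Gk spots of tMCAO replicate 1 and of 0.14 on tMCAO replicate 2. On the other 4 arrays it was between -0.04 and -0.03. Among spots of other probes without the nonuniform mark, within the range of the Gk spots, it was -0.02 on tMCAO replicate 1 and -0.0047 on tMCAO replicate 2. The Gk medians include marked spots, and the mark itself reflects uneven pixels, so part of this contrast follows from the choice of spots. The 9 unmarked Gk spots of tMCAO replicate 1 ran from -0.06 to 0.15. With pixel medians in place of means, Gk on tMCAO replicate 2 was still 2.32 log2 units above the sham mean, whereas tMCAO replicate 1 was 0.29 above it. The difference between groups was then 0.89 ± 0.50 log2 units (SE; limma, adjusted p = 0.376).

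Nonuniform marks were more frequent on the same arrays outside Gk. Among all other spots, 126 and 96 carried the mark on tMCAO replicates 1 and 2, against 33 on tMCAO replicate 3 and 21, 31 and 22 on the sham arrays. Of these, 98 of 126, 88 of 96 and 24 of 33 on tMCAO replicates 1, 2 and 3 lay more than 1 log2 unit above the sham mean of the same spot. Marked spots on sham arrays were also bright, with 11 of 21, 16 of 31 and 12 of 22 above the mean of the other sham arrays by that much. How many unmarked spots lay that far above was not counted, so these counts have no background share. The part of RNA level and of spot printing in these values was not tested.

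The value of Gk rested on tMCAO replicate 2. With all spots kept, the difference was 0.32 log2 units without that array (limma, adjusted p = 0.467) and 1.55 without tMCAO replicate 3 (limma, adjusted p = 0.12). The authors' deposited table keeps a value for each array, 9.72, 9.73 and 9.93 in sham and 10.34, 12.20 and 9.87 in tMCAO, and gave a difference of 1.01 ± 0.52 log2 units (SE; limma, adjusted p = 0.334).

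**Figure D5:**
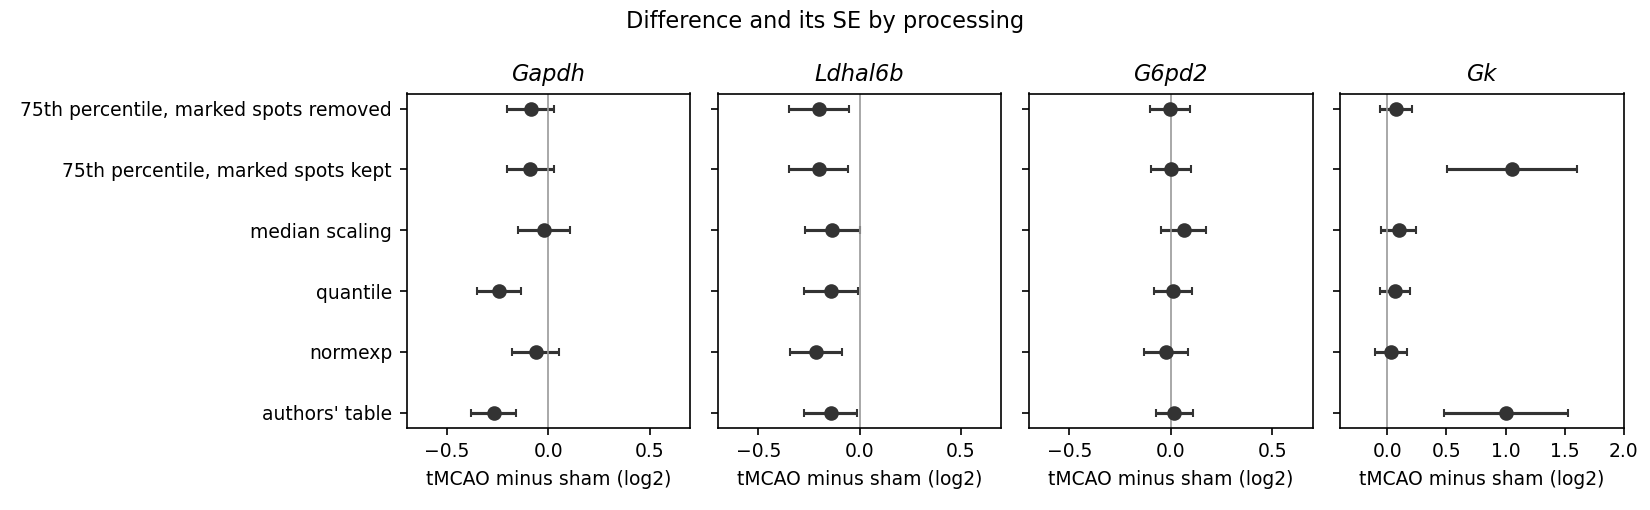
Difference between tMCAO and sham in log2 units for each gene, with its SE as a bar, under 6 ways of processing the arrays; the Gk axis is wider than the others. Gapdh is lowest with quantile normalization (-0.24) and in the authors' deposited table (-0.27). Gk is near 1 only with marked spots kept and in the authors' deposited table. The other ways left marked spots out, so Gk had no value for tMCAO replicate 2 there.

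Single arrays stood apart for different genes. The 75th percentile that scales each array was 555.5, 605.9 and 705.5 intensity units in sham and 934.6, 918.6 and 537.2 in tMCAO (exact permutation p = 0.4 for its log2 value). On tMCAO replicates 1 and 2, the arrays with the highest percentile, Gk with all spots was high, whereas Gapdh was low on the first alone and Ldhal6b lowest on the second. The part of array brightness in these values was not tested. Without any scaling, the mean log2 signal over all spots was higher in tMCAO for each gene, by 0.23 for Gapdh, 0.12 for Ldhal6b, 0.32 for G6pd2 and 1.37 for Gk. The file headers give all 6 arrays 1 scan. They also hold a code per array whose first digit is 2 for replicate 3 of both groups and 1 for the other 4 arrays, and what the digit stands for is not given in the headers. Gk with all spots differed by 1.62 log2 units among the arrays with digit 1, with 2 arrays per group, and by -0.07 between those with digit 2, with 1 array per group. In the same order, Gapdh differed by -0.15 and 0.04, Ldhal6b by -0.20 and -0.22 and G6pd2 by -0.0049 and -0.0042.

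Among the other accession-named genes, Ppia, Tuba1b and Actb had the values most like those of Gapdh over the 6 arrays (Pearson r = 0.93, 0.89 and 0.70). For Ldhal6b they were Actb (0.46), Nono (0.37) and Rpl13a (0.23), and for G6pd2 Hprt (0.42), Ppia (0.24) and Tfrc (0.22). Gk with all spots was most like B2m (0.68), Gusb (0.45) and Tbp (0.37). By rank the order was another. In the same order of genes, Spearman rho was 0.60, 0.71 and 0.31 for Gapdh and 0.37, 0.37 and 0.54 for Ldhal6b. It was 0.37, 0.71 and 0.14 for G6pd2 and 0.60, 0.66 and 0.54 for Gk. All of these values share the scaling of their array and are given as a description.

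No other gene of these pathways has an accession in the array files, and Pgk1 could be read through its control probes alone. Of 30 genes listed for glycolysis and lactate, 2 had a probe named by accession, Gapdh and Ldhal6b. The pentose phosphate list of 11 genes had G6pd2 alone, and the glycerol list of 12 genes had Gk alone. In each list 0 of these members rose and 0 fell, against 1.23% and 0.187% of all tested probes, and so few members say nothing of a pathway. Of 28 markers of neurons, glia, vessels, neutrophils and testis, 0 could be read by name, so the tissue label was not checked against its markers. Probe sequences were not used here, so whether the G6pd2 probe also binds RNA of G6pdx, or the Ldhal6b probe that of other lactate dehydrogenases, was not tested.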

How the data were processed

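The deposited scanner files give linear intensity per spot, extracted by version 11.0.1.1 of Agilent's Feature Extraction software according to the submitters' processing notes. The processed signal is background-subtracted, per the file headers. A further deposited table holds the authors' log2 values for these arrays, whose method and centring are not given in the sources used here.

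The log2 of the processed signal minus the 75th percentile of the 61500 non-control spots was averaged over the unmarked spots of a probe, leaving out 300 negative spots. Probes well above background on at least 3 of 6 arrays, with at least 2 values per group, were tested with limma 3.58.1 (lmFit and eBayes, two-sided, Benjamini-Hochberg, threshold 0.05) in R 4.3.3. For a probe with several spots, well above background means over 0.5 of them. The limma fit was tested on simulated probe values with none missing, and the removal of marked spots and the scalings were not covered. Symbols came from a RefSeq table (GRCm38.p6), matched without accession versions for all 15 accessions. No coordinates are given because the array design uses another build. The files hold no mean signal, so normexp (offset 50) used median signals. The number of arrays limits the precision.

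The genes, lists and alternatives were chosen with earlier results of these data known. All 4 genes are reported, and the naming rule added for each the 3 accession-named genes with the highest Pearson r. Alternatives covered spot marks, scaling, background, filters, weights, blocks and single arrays left out.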

Additional observations from a re-analysis of the deposited data

Results flagged for a closer look

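The spots of Gk that carried a nonuniform mark are outside the tested values and were brighter than in sham. On tMCAO replicate 2 the 20 marked spots averaged 2.52 log2 units above the sham mean of all spots, and on tMCAO replicate 1 the 11 marked spots averaged 0.89 above it. The marked spots of the other 4 arrays carried the population outlier mark, a different kind. They averaged between -0.58 and -0.33 relative to that mean on the sham arrays and -0.15 on tMCAO replicate 3.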

How the results depend on the processing

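The difference of Gapdh and of Ldhal6b stayed below 0 under all 19 alternatives, each of which compares scaled or normalized arrays (unscaled, they were 0.23 and 0.12), and 0 of the 4 genes passed the threshold under any alternative run. Gapdh ranged from -0.27 (the authors' deposited table) to -0.0079 log2 units (without tMCAO replicate 1). G6pd2 lay above 0 with marked spots kept (0.00134), median scaling (0.0632), quantile normalization (0.0119) and in the authors' deposited table (0.0183), and between -0.0224 and 0.00801 without single arrays. Gk, at 0.08, was -0.0045 with the median over spots, between 0.0189 and 0.148 without single arrays, and between 0.32 and 1.55 without single arrays when marked spots were kept.

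The 630 changed probes became 370 with normexp, 263 with no filter on dim probes and 388 with the replicate block. They became 757 with quantile normalization, 844 with array weights and 928 with trended robust variance. Every other alternative with all 6 arrays gave between 516 and 713. Without single arrays the count ran from 119 to 1069. It was 119, 228 and 158 without sham replicates 1, 2 and 3, and 128, 399 and 1069 without tMCAO replicates 1, 2 and 3. Where leaving out an array left Gk with 1 tMCAO value, that value is assumed to vary like those of other groups.

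Same-numbered arrays deviated together weakly (r = 0.02, 0.09 and 0.13 over probes). Sham replicate 3 correlated best with tMCAO replicate 3. Sham replicate 1 did so with tMCAO replicate 3 (0.10) and sham replicate 2 with tMCAO replicate 1 (0.15). The numbers were therefore not taken as pairs. With the replicate block the differences were -0.09 for Gapdh, -0.20 for Ldhal6b, -0.0047 for G6pd2 and 0.02 for Gk (1.05 with marked spots kept), and no call changed. Slide or scan as a block was not run, because all 6 arrays share 1 scan. The block by the first digit of the header code, the pixel medians and the fits with marked spots kept and an array left out were chosen after seeing the data. Depth is a matter of signal here: Ldhal6b is the dimmest of the 4, and its spots vary most after those of Gk.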
